A study of Mus musculus with 9 samples.

Results

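The 10 circadian clock genes Per1, Per2, Per3, Cry1, Cry2, Arntl, Clock, Nr1d1, Nr1d2 and Dbp were followed, each taken by its gene symbol, among the 24532 genes listed for each of 9 mice. All 10 were found in every mouse and all 10 passed the filter on low counts (a mean of at least 30 reads per mouse), with between 714 and 11770 reads per gene and mouse. The circadian clock is a loop of transcription factors that runs in nearly every mammalian cell. The proteins CLOCK and BMAL1 (encoded by Arntl) bind E-box sequences as a pair and switch on the Per and Cry genes, whose proteins then return to block the pair. A further arm holds Nr1d1 and Nr1d2, nuclear receptors also switched on by the pair, which repress Arntl, and Dbp is an output factor that binds D-box sequences. In mouse tissues the Dbp, Nr1d1 and Per transcripts peak during the day or around dusk, and Arntl, Npas2 and Clock peak around the end of the night. The clock also meets the stress axis, since the glucocorticoid receptor can switch on Per1, and FKBP5, the co-chaperone removed in this study, lowers the sensitivity of that receptor.

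RNA came from the medial prefrontal cortex (mPFC) of C57BL/6 mice, labeled as 11 weeks old and given in the methods as male C57BL/6J mice of 8 weeks. CT mice (n = 3) were wild type and were not restrained, WT_ST mice (n = 3) were wild type and were exposed to chronic restraint stress of 6 h per day for 3 weeks, and KO_ST mice (n = 3) were labeled Fkbp5-/- and were under the same stress. No unstressed Fkbp5-/- group was among these mice, so the effect of genotype can only be read under stress. By the methods, mice were kept in a single cage under a 12-h light-dark cycle and tested in the light phase. Food and water were withheld from all groups during the restraint hours, and the knockout line had been backcrossed for 10 generations. The clock time at which each mouse was collected is not given in the sources used here. Libraries are from separate mice, held 43778471 to 61150128 reads on genes, and carried replicate numbers that do not pair mice across groups.

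The checks of labels and tissue were as follows. Fkbp5 was measured at 7.61, 6.46 and 7.28 FPKM (fragments per kilobase of transcript, scaled to the mapped reads of the mouse) in CT, at 9.83, 9.47 and 10.3 in WT_ST and at 3.59, 4.69 and 4.45 in KO_ST. Its 3 groups did not overlap, and KO_ST lay below WT_ST by a log2 fold change of -1.04 (standard error, SE, 0.0866, limma adjusted p = 0.00908). The KO_ST mice still held 625 to 907 reads on Fkbp5, and a value over the whole gene cannot show whether the deleted part is missing. Of the markers of the suprachiasmatic nucleus, the master clock of the hypothalamus, Avp and Prok2 stayed below 1 FPKM in every mouse, and Vip, which cortical interneurons also make, and Rgs16 were detected. The choroid plexus markers Ttr, Kl and Folr1 all stayed below 1 FPKM, and the neuron and cortical layer markers were present in every mouse.

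Sequences near the transcription starts are shown first, because the clock proteins are known to act on the genes of the loop through short runs of such letters. RefSeq windows reaching from 250 bases before to 50 bases after each start (build GRCm38.p6) were searched on both strands for the E-box (CACGTG), the E'-box (CACGTT), the D-box (TTATGTAA or TTACGTAA), the core of the element bound by NR1D1 and ROR proteins (TAGGTCA or TGGGTCA) and the cyclic AMP response element (TGACGTCA). Of 32851 such windows of all genes, 7.15% held an E-box, 4.68% an E'-box, 1.06% a D-box, 6.45% the NR1D1 and ROR core and 1.79% the cyclic AMP response element. Capitals mark the matched letters, AACGTG being the E'-box read on the other strand. Each stretch is printed 5′ to 3′ on the strand of its gene.
Cry1, chr10:85185099-85185143, minus strand, upstream of the gene: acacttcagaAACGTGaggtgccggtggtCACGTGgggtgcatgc
Per1, chr11:69098763-69098808, plus strand, upstream of a start inside the annotated span of the gene: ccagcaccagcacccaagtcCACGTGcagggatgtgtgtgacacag
Per3, chr4:151044806-151044880, minus strand, upstream of the gene: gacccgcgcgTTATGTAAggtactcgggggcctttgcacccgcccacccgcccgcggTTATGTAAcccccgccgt
Nr1d1, chr11:98775388-98775417, minus strand, upstream of the gene: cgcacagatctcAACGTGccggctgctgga
Arntl, chr7:113207530-113207558, plus strand, just after the second of 2 listed starts, both inside the annotated span of the gene: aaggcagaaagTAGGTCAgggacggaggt
Ciart, chr3:95882257-95882354, minus strand, upstream of the start: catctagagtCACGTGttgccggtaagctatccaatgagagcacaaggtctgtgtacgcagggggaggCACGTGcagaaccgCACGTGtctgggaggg
Cry1 holds an E-box 60 bases and an E'-box 79 bases before its start. Per1 holds an E-box at position -166 from the first of its 2 listed starts and none of these letters in the window of the second. Nr1d1 holds an E'-box at -28, and Arntl the NR1D1 and ROR core at 31 bases after the second of its 2 listed starts, while the window of the first start held none of these letters. Per3 holds 2 D-boxes, at -205 and -158, and Ciart, a clock repressor described with the other clock genes, holds 3 E-boxes, at -116, -58 and -44. The Cry2 window holds an E'-box at -166, and none of these letters stood in the windows of Clock, Nr1d2 or Dbp. Of the other clock genes searched, Tef holds an E-box before each of its 2 listed starts, at -127 and -138. Hlf holds a cyclic AMP response element at -9, and the windows of Npas2 and Usp2 held none of these letters. Per2 had no entry in the table. A match describes the letters only, and binding was not measured.

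The measurements were compared over all tested genes, and a gene was called at an unadjusted p under 0.05 with a fold change over 1.2. These thresholds are those of the methods, but the p here is that of limma, where the methods took it from an unmoderated test of each gene. In WT_ST against CT, 2 of the 10 clock genes were called, both higher (Per2 and Cry1), beside 2.47% of all 14370 genes tested (1.16% called higher and 1.32% lower). In KO_ST against CT, 3 were called, Per1 and Per2 higher and Arntl lower, beside 3.56% of all genes (1.54% higher and 2.03% lower). For KO_ST against WT_ST, 0 were called, beside 2.0% of all genes (0.946% higher and 1.05% lower). The comparisons with CT share the CT mice. With p-values adjusted over all genes by Benjamini-Hochberg, 0 of the 10 passed 0.05 in any comparison with limma or with edgeR on read counts. The shares of all genes that passed in WT_ST against CT, KO_ST against CT and KO_ST against WT_ST were 0.0348%, 0.0626% and 0.153% with limma and 0.0418%, 0.0557% and 0.16% with edgeR. DESeq2 on read counts passed 2 of the 10 in WT_ST against CT (Per2 and Cry1), beside 0.501% of all genes with an adjusted p, 1 in KO_ST against CT (Per1), beside 0.787%, and 0 in KO_ST against WT_ST, beside 0.529%. The unadjusted p was under 0.05 for 5, 4 and 2 of the 10 in WT_ST against CT, KO_ST against CT and KO_ST against WT_ST, beside 7.86%, 9.46% and 5.82% of all genes. The median log2 fold change of the 10 was 0.14, 0.22 and -0.01 in that order, and that of all tested genes was 0.0034, 0.0024 and -0.0015.

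**Figure D1:**
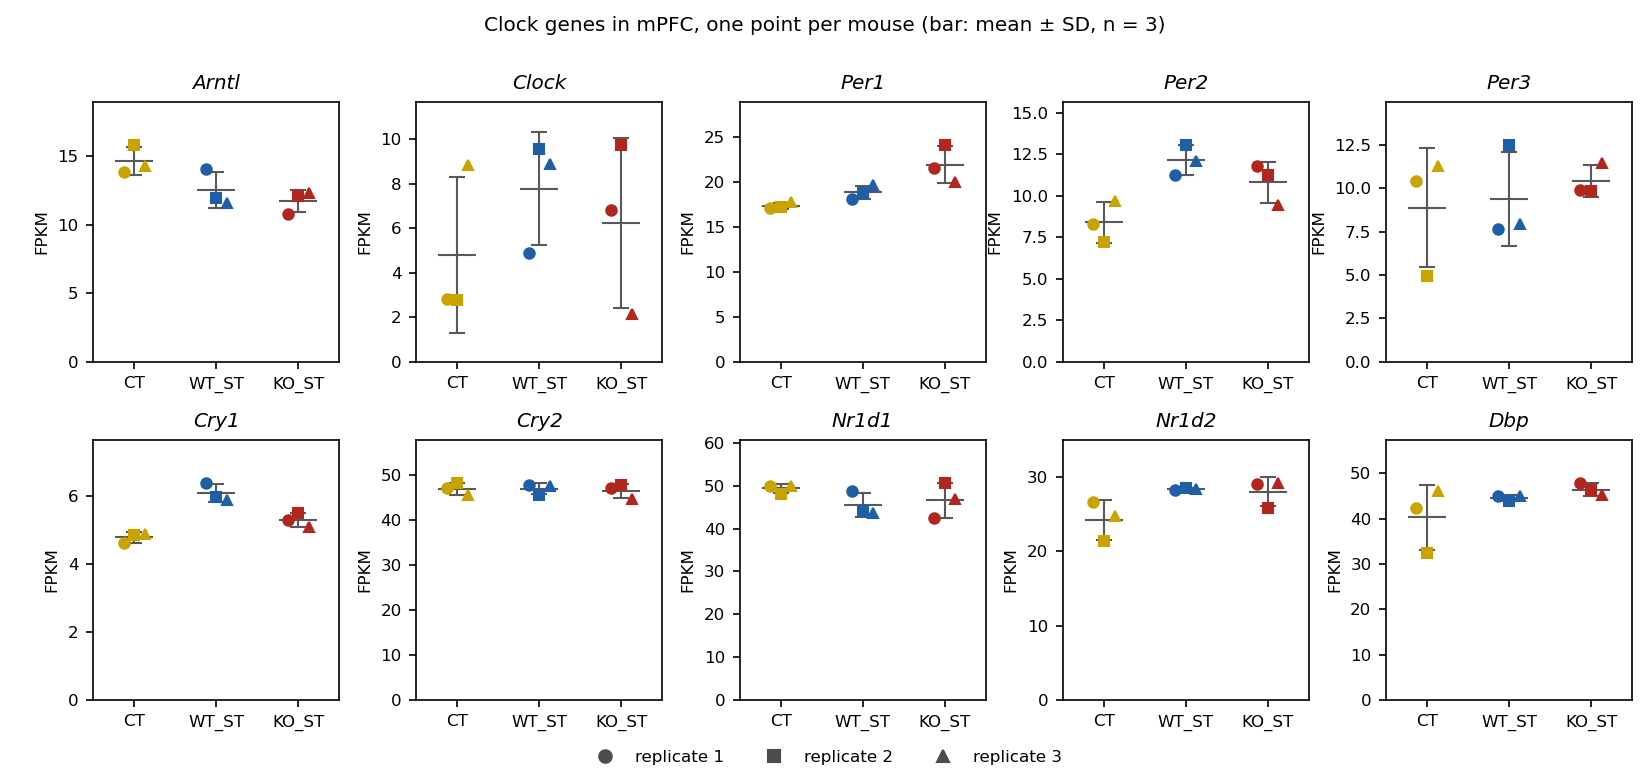
FPKM of each of the 10 clock genes (vertical axes, from 0) in CT, WT_ST and KO_ST, one point per mouse with the marker shape giving the replicate number, a long line for the mean and bars for ± SD (n = 3). Per1 lies at 17.1 to 17.7 in CT and at 20.05 to 24.1 in KO_ST, and Clock spreads from 2.16 to 9.75 within and across groups.

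The Per genes encode repressors of the CLOCK and BMAL1 pair. Per2 was called higher than CT in both stressed groups and Per1 in KO_ST, while Per3 varied between mice within each wild-type group. Per1, which responds fast to light and glucocorticoids, was measured at 17.1, 17.3 and 17.7 FPKM in CT, at 18.1, 18.8 and 19.6 in WT_ST and at 21.5, 24.1 and 20.05 in KO_ST. The 3 groups did not overlap, with CT lowest and KO_ST highest. Means were 17.4 ± 0.335 in CT, 18.8 ± 0.755 in WT_ST and 21.9 ± 2.06 FPKM in KO_ST (SD, n = 3). Against CT, the log2 fold change of Per1 in KO_ST was 0.33 (SE 0.0722, 95% confidence interval 0.16 to 0.50, limma adjusted p = 0.443), and without KO_ST replicate 2 it was 0.25, under the fold threshold. KO_ST exceeded WT_ST by 0.22 (95% confidence interval 0.04 to 0.39, limma adjusted p = 0.812), below the fold threshold, by 0.28 without KO_ST replicate 3, which was called, and by 0.14 without KO_ST replicate 2. WT_ST exceeded CT by 0.11 (SE 0.0473, limma adjusted p = 0.635), which was not called.

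Per2, the Per gene most needed for a persistent rhythm, was measured at 8.29, 7.20 and 9.68 FPKM in CT, at 11.2, 13.1 and 12.1 in WT_ST and at 11.8, 11.2 and 9.43 in KO_ST. All WT_ST mice lay above all CT mice, and in KO_ST replicate 3 lay below the highest CT mouse. On the quantile-normalized scale used for the test, the KO_ST and CT mice did not overlap. Per2 exceeded CT by a log2 fold change of 0.51 in WT_ST (SE 0.101, 95% confidence interval 0.27 to 0.75, limma adjusted p = 0.542) and of 0.36 in KO_ST (SE 0.115, 95% confidence interval 0.09 to 0.64, limma adjusted p = 0.499). The KO_ST call was lost without KO_ST replicate 1 (0.31) or without KO_ST replicate 2 (0.33), where the unadjusted p missed its threshold. KO_ST against WT_ST gave -0.14 with a 95% confidence interval from -0.36 to 0.07, and -0.05 without KO_ST replicate 3 or -0.09 without WT_ST replicate 2.

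Per3, which is dispensable for rhythms in the mouse, was measured at 10.4, 4.93 and 11.3 FPKM in CT, at 7.65, 12.5 and 7.96 in WT_ST and at 9.91, 9.82 and 11.5 in KO_ST. CT replicate 2 was lowest and WT_ST replicate 2 highest, and the groups overlapped in every comparison. Its within-group SD on the log2 scale, 0.40, was larger than that of 97.98% of all tested genes. Against CT, the log2 fold change of Per3 was 0.13 in WT_ST and 0.30 in KO_ST, and without CT replicate 2 these turned to -0.21 and -0.03. KO_ST against WT_ST gave 0.17, without WT_ST replicate 2 it gave 0.38 and was called (limma adjusted p = 0.783), and without WT_ST replicate 1 it gave 0.07.

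The Cry genes encode the partners of the PER proteins in the repressor complex. Cry1 was higher in WT_ST than in CT, and Cry2 was at nearly the same level in all mice. Cry1 was measured at 4.61, 4.84 and 4.89 FPKM in CT, at 6.38, 5.98 and 5.89 in WT_ST and at 5.29, 5.49 and 5.08 in KO_ST. The 3 groups did not overlap, and KO_ST lay between CT and WT_ST. The log2 fold change of Cry1 was 0.32 in WT_ST against CT (SE 0.0643, 95% confidence interval 0.17 to 0.47, limma adjusted p = 0.542). It was 0.15 in KO_ST against CT (SE 0.0648, limma adjusted p = 0.533) and -0.17 in KO_ST against WT_ST (95% confidence interval -0.32 to -0.01, limma adjusted p = 0.83), both below the fold threshold. In every mouse the lowest FPKM of the 10 genes was that of Cry1 or Clock.

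Cry2 was measured at 47.0, 48.1 and 45.4 FPKM in CT, at 47.6, 45.5 and 47.5 in WT_ST and at 46.9, 47.6 and 44.7 in KO_ST. The highest mouse exceeded the lowest by a factor of 1.08. The 95% confidence interval of the log2 fold change of Cry2 reached from -0.09 to 0.12 in WT_ST against CT and from -0.12 to 0.11 in KO_ST against CT. Its within-group SD was larger than that of only 8.55% of tested genes. Cry2 was thus the steadiest of the 10 clock genes by SD.

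Arntl, which encodes the BMAL1 protein of the activating pair, was lower in KO_ST than in CT. It was measured at 13.8, 15.8 and 14.3 FPKM in CT, at 14.0, 11.95 and 11.6 in WT_ST and at 10.8, 12.1 and 12.3 in KO_ST. All KO_ST mice lay below all CT mice, and WT_ST replicate 1 lay within the CT range. It lay below CT by a log2 fold change of -0.28 in KO_ST (SE 0.0768, 95% confidence interval -0.46 to -0.10, limma adjusted p = 0.489) and of -0.21 in WT_ST (SE 0.0863, 95% confidence interval -0.41 to -0.01, limma adjusted p = 0.635), the latter under the fold threshold. The KO_ST call was lost without CT replicate 2 (-0.22) or without KO_ST replicate 1 (-0.22), where the fold change fell under 1.2. Without WT_ST replicate 1 the WT_ST value was -0.29 and was called (limma adjusted p = 0.778). KO_ST against WT_ST gave -0.07 for Arntl, and 0.0111 without WT_ST replicate 1.

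Clock, the partner of BMAL1, was the most variable of the 10. It was measured at 2.81, 2.78 and 8.85 FPKM in CT, at 4.89, 9.59 and 8.87 in WT_ST and at 6.81, 9.75 and 2.16 in KO_ST. Low mice (under 3 FPKM) and high mice (over 8 FPKM) stood side by side in CT and in KO_ST, a range of 4.52 times. Read counts on Clock ran from 1103 to 4589, and the transcript length that reads and FPKM imply together varied by only 1.0% between mice, so the spread was in the counted reads. Srd5a3 and Tmem165, which both lie past the 3′ end of Clock on chromosome 5, ranged from 9.12 to 11.1 and from 13.4 to 16.3 FPKM. The within-group SD of Clock was larger than that of 99.6% of tested genes. WT_ST exceeded CT by a log2 fold change of 0.73 (95% confidence interval -0.20 to 1.66, limma adjusted p = 0.681), and without CT replicate 3 by 1.18, which was called (limma adjusted p = 0.328). KO_ST against CT gave 0.33 for Clock (95% confidence interval -0.91 to 1.58), with -0.04 without KO_ST replicate 2 and 0.85 without KO_ST replicate 3. KO_ST against WT_ST gave -0.40 (95% confidence interval -1.45 to 0.66), with 0.12 without KO_ST replicate 3 and -0.77 without KO_ST replicate 2.

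**Figure D2:**
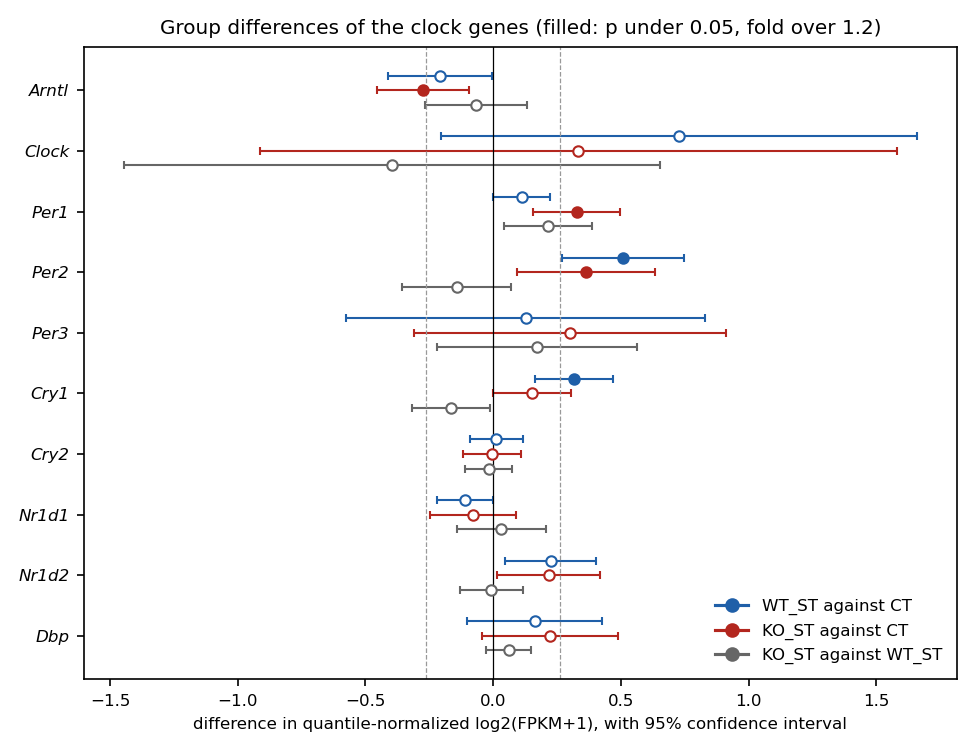
Differences of each clock gene between groups in quantile-normalized log2(FPKM+1) (horizontal axis), with 95% confidence intervals from limma, for WT_ST against CT (blue), KO_ST against CT (red) and KO_ST against WT_ST (gray). Filled points are the 5 calls, dashed lines mark a fold change of 1.2, and the intervals of Clock and Per3 are the widest.

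No call was made for the nuclear receptors Nr1d1 and Nr1d2 or for the output factor Dbp. Nr1d1 (REV-ERB alpha), a repressor of Arntl, was measured at 50.02, 48.1 and 49.98 FPKM in CT, at 48.7, 44.1 and 43.7 in WT_ST and at 42.4, 50.6 and 46.8 in KO_ST. KO_ST mice took both the lowest and the highest value of the 9. WT_ST against CT gave a log2 fold change of -0.11 (SE 0.0463, limma adjusted p = 0.635), with an unadjusted p under 0.05 but below the fold threshold, and KO_ST against CT gave -0.08 (95% confidence interval -0.25 to 0.09), with -0.0073 without KO_ST replicate 1 and -0.15 without KO_ST replicate 2. KO_ST against WT_ST gave 0.03, and -0.03 without KO_ST replicate 2. Nr1d1 shares its 3′ end with Thra, a gene on the opposite strand, and whether the counting used strand is not given in the sources used here. Other annotated genes also overlap parts of Per2, Per3, Cry2, Arntl, Clock and Dbp.

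Nr1d2 (REV-ERB beta) was measured at 26.6, 21.4 and 24.8 FPKM in CT, at 28.2, 28.5 and 28.4 in WT_ST and at 29.1, 25.8 and 29.2 in KO_ST. All WT_ST mice lay above all CT mice, while KO_ST replicate 2 lay below the highest CT mouse. Nr1d2 exceeded CT by a log2 fold change of 0.23 in WT_ST (SE 0.0759, limma adjusted p = 0.634) and of 0.22 in KO_ST (SE 0.0855, limma adjusted p = 0.501), both with an unadjusted p under 0.05. Both were below the fold threshold, and without CT replicate 1 both passed it (0.29 and 0.28). Without CT replicate 2, the mouse lowest for Nr1d2, they fell to 0.14 and 0.14. Without KO_ST replicate 2 the second was 0.27 and was called.

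Dbp was measured at 42.3, 32.3 and 46.1 FPKM in CT, at 44.9, 43.8 and 44.9 in WT_ST and at 47.8, 46.2 and 45.1 in KO_ST. CT replicate 2 was the one low mouse, and the other 8 lay between 42.3 and 47.8 FPKM. Against CT the log2 fold change of Dbp was 0.16 in WT_ST (95% confidence interval -0.10 to 0.43) and 0.22 in KO_ST (95% confidence interval -0.05 to 0.49). The WT_ST value was 0.0225 without CT replicate 2 and 0.26 without CT replicate 3. The KO_ST value was 0.32 without CT replicate 3, and was then called (limma adjusted p = 0.543), and 0.08 without CT replicate 2.

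Groups that did not overlap on the scale of the test were found for 5 of the 10 clock genes in WT_ST against CT (Per1, Per2, Cry1, Nr1d1 and Nr1d2), beside 14.0% of all tested genes. In KO_ST against CT they were found for 4 (Per1, Per2, Cry1 and Arntl), beside 15.8%, and in KO_ST against WT_ST for 2 (Per1 and Cry1), beside 11.0%. With KO_ST replicate 1 left out, the calls in KO_ST against CT were 1 instead of 3. In KO_ST against WT_ST, leaving out WT_ST replicate 2 or KO_ST replicate 3 gave 1 call instead of 0. The shares of all tested genes called in the fits with a mouse left out are not given here.

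Whether mice differed in apparent clock phase was examined from how the genes moved together. CT replicate 2 stood apart. It was the lowest of the 9 mice for Per2, Per3, Nr1d2 and Dbp and the highest for Cry2 and Arntl, so it lay at an end of the range for 6 of 10 clock genes. It lay at an end for 34.8% of all tested genes too, the highest share of any mouse, where the other 8 mice had 14.0% to 26.9% of tested genes and 0 to 3 of the clock genes. Its departure was therefore not limited to the clock, and its part in the results was measured only by leaving it out.

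A contrast was taken per mouse as the mean of Dbp, Per1, Per2, Per3 and Nr1d1 minus the mean of Arntl, Npas2 and Clock, on the quantile-normalized log2(FPKM+1) scale. Npas2 is a paralog of Clock that is strongly expressed in the forebrain. The contrast was 1.12, 0.72 and 0.76 in CT, 0.92, 0.90 and 0.81 in WT_ST and 1.05, 0.92 and 1.38 in KO_ST. The highest values were those of KO_ST replicate 3 and CT replicate 1, which were low in Clock, and the lowest that of CT replicate 2, which was low in Clock too. Without Clock, a version added after the data were seen, it was 0.43, -0.01 and 0.54 in CT, 0.46, 0.76 and 0.64 in WT_ST and 0.80, 0.81 and 0.65 in KO_ST. All KO_ST mice then lay above all CT mice, which was not so with Clock, while WT_ST overlapped both. Group means without Clock were 0.322 ± 0.29 in CT, 0.621 ± 0.151 in WT_ST and 0.751 ± 0.0912 in KO_ST (SD, n = 3). Dbp minus Arntl alone gave 1.56, 0.999 and 1.63 in CT, 1.60, 1.81 and 1.89 in WT_ST and 2.04, 1.85 and 1.79 in KO_ST. All KO_ST mice lay above all CT mice here too, but both genes are terms of the version without Clock. Arntl alone already did not overlap between KO_ST and CT, nor did 15.8% of all tested genes. CT replicate 2 was lowest in each version. Without that mouse, KO_ST exceeded CT by 0.26 instead of 0.43 in the version without Clock and by 0.30 instead of 0.50 for Dbp minus Arntl. The other mice spanned 0.43 to 0.81 without Clock. No test was made of this score, and collection time and group cannot be told apart in it.

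**Figure D3:**
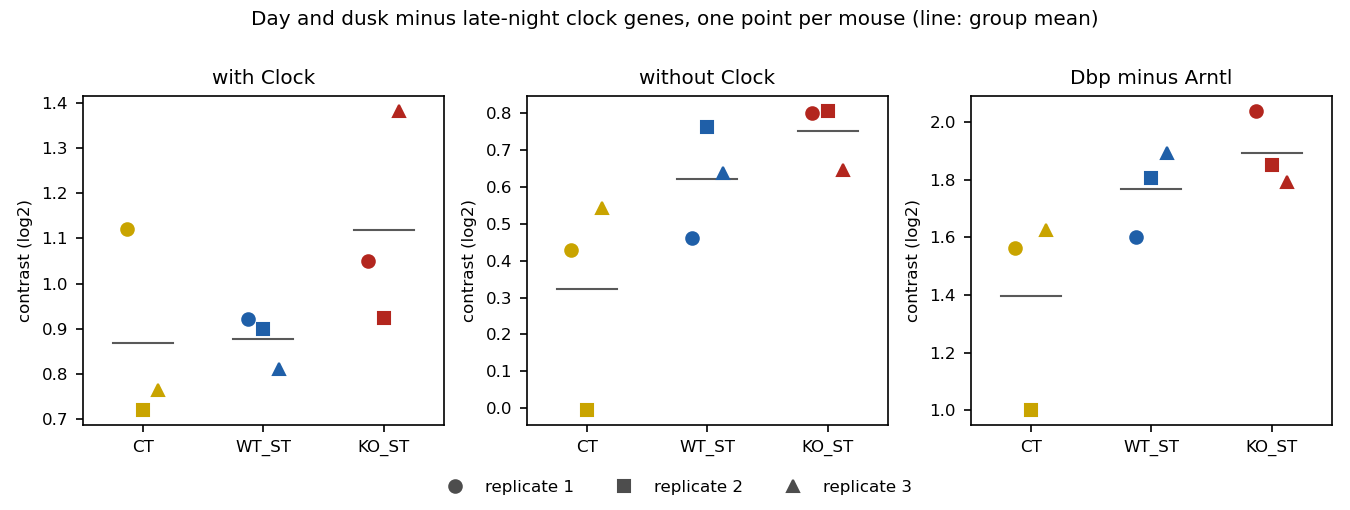
The contrast of day and dusk genes minus late-night genes for each mouse (log2 scale, vertical axes not from 0), by group, with Clock, without Clock and as Dbp minus Arntl alone, with marker shapes for replicate numbers and lines for group means. CT replicate 2 is lowest in each panel, and without Clock the KO_ST mice (0.65 to 0.81) lie above the CT mice (-0.01 to 0.54).

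Over the 9 mice, 45 pairs of clock genes were correlated, with exact two-sided permutation p-values adjusted over the 45. Pearson's r was 0.7 or more in size for 10 pairs, 6 positive and 4 negative, and after adjustment 0 pairs passed 0.05. The strongest pair was Arntl and Nr1d2 (r = -0.818, exact permutation p = 0.0047, adjusted 0.124, and Spearman's rho = -0.717, exact permutation p = 0.0369, adjusted 0.237). Without the 2 mice farthest from the median of Arntl, r was -0.575. Per2 and Arntl gave r = -0.80 (exact permutation p = 0.00884, adjusted 0.124) and rho = -0.85 (exact permutation p = 0.00607, adjusted 0.162), with r = -0.564 without the 2 farthest mice and -0.674 for deviations from the group means. Arntl and Dbp gave r = -0.764 (exact permutation p = 0.00578, adjusted 0.124) and rho = -0.65 (exact permutation p = 0.0666), with r = -0.403 without the 2 farthest mice.

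Some pairs rested on few mice or on the groups, and others did not. Per2 and Dbp gave r = 0.744 (exact permutation p = 0.0143, adjusted 0.124) and rho = 0.533 (exact permutation p = 0.148), and without the 2 farthest mice r was -0.06, so that the relation rested on those mice. Per2 and Cry1 gave r = 0.793 (exact permutation p = 0.0114, adjusted 0.124) and rho = 0.767 (exact permutation p = 0.0214), but r was 0.01 for deviations from the group means, so the relation was one between groups. Per3 and Cry2 gave r = -0.711 (exact permutation p = 0.0249, adjusted 0.14) and rho = -0.817 (exact permutation p = 0.0108), and stayed at -0.721 without the 2 farthest mice and at -0.75 within groups. Per2 and Clock gave r = 0.762 (exact permutation p = 0.0193, adjusted 0.124) and rho = 0.683 (exact permutation p = 0.0503, adjusted 0.283), with r = 0.573 without the 2 farthest mice and 0.892 for deviations from the group means, the largest such value of the 45 pairs. Per1 and Clock gave r = 0.428 (exact permutation p = 0.254, adjusted 0.477) and rho = 0.45 (exact permutation p = 0.23), with r = 0.126 without the 2 farthest mice and 0.771 for deviations from the group means. The contrast sets Clock against both Per genes. It also sets Nr1d1 against Arntl, and Nr1d1 was kept in the version without Clock. Arntl and Nr1d1 gave r = 0.665 (exact permutation p = 0.0525, adjusted 0.215), with 0.573 for deviations from the group means. With group means removed, 7 pairs reached 0.7 in size, 6 positive and 1 negative.

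**Figure D4:**
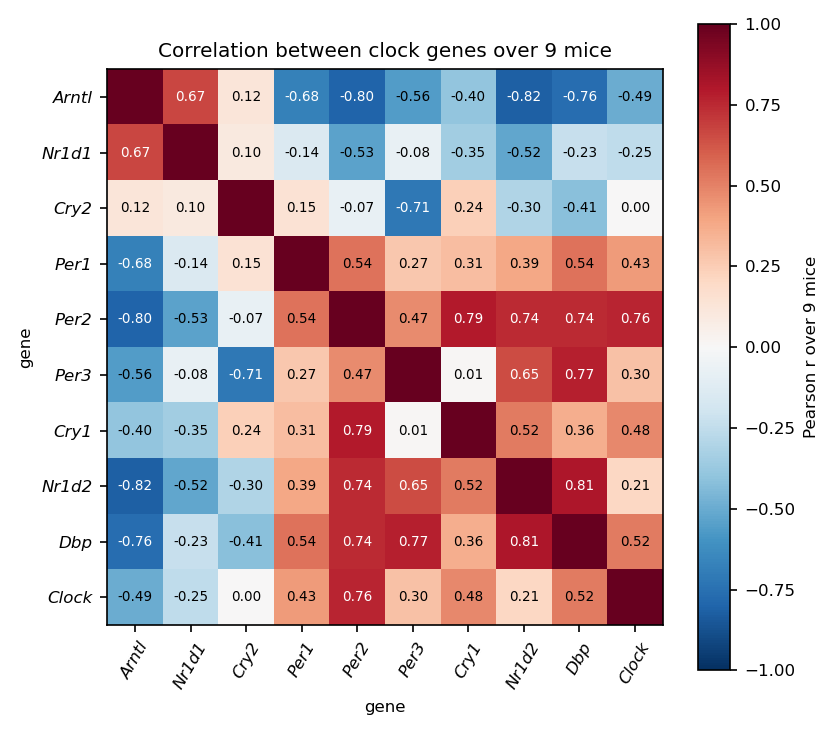
Pearson's r between each pair of clock genes over the 9 mice, on quantile-normalized log2(FPKM+1), with the value in each cell and red for positive and blue for negative r. The row of Arntl is negative against Nr1d2 (-0.82), Per2 (-0.80) and Dbp (-0.76) and positive against Nr1d1 (0.67).

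Within groups, 7 of the 10 clock genes had an SD above the median of all tested genes on this scale. That count is near what a median splits, and was 5 or 6 under other scalings. Per2 and Dbp stood at the percentiles 80.5 and 78.9, Arntl at 66.3, Nr1d2 at 58.2, Nr1d1 at 50.1, Per1 at 45.02 and Cry1 at 15.8.

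The other clock genes, a list of 25 that all passed the filter, gave few calls. In WT_ST against CT 1 was called (Usp2), in KO_ST against CT 2 (Usp2 and Ciart) and in KO_ST against WT_ST 1 (Ciart), beside 2.47%, 3.56% and 2.0% of all tested genes. Their median log2 fold changes were 0.04, 0.06 and -0.04. Leaving out CT replicate 1 gave 4 calls in WT_ST against CT, and leaving out CT replicate 2 or WT_ST replicate 2 gave 2. In KO_ST against WT_ST the count was 2 without WT_ST replicate 1 and 0 without WT_ST replicate 2 or KO_ST replicate 2. The shares of all tested genes above belong to the full fits, and the shares with a mouse left out are not given here.

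Usp2, a deubiquitinase whose transcript cycles and whose protein acts on PER1 and BMAL1, was the called gene that was lower. It was measured at 23.1, 24.2 and 20.3 FPKM in CT, at 13.9, 19.9 and 13.4 in WT_ST and at 14.0, 13.8 and 15.5 in KO_ST. All stressed mice lay below all CT mice, with WT_ST replicate 2 close to them. The log2 fold change of Usp2 was -0.59 in KO_ST against CT (SE 0.0803, 95% confidence interval -0.78 to -0.40, limma adjusted p = 0.115, DESeq2 adjusted p = 1.79e-06, edgeR adjusted p = 0.201) and -0.51 in WT_ST against CT (SE 0.146, 95% confidence interval -0.85 to -0.17, limma adjusted p = 0.63, DESeq2 adjusted p = 0.122). KO_ST against WT_ST gave -0.08, and 0.09 without WT_ST replicate 2. The transcript length implied by reads over FPKM was 3434 to 3470 bases in the 4 mice with the higher levels and 3574 to 3605 bases in the other 5. Its part in the difference was not tested.

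Ciart (CHRONO), a repressor of the CLOCK and BMAL1 pair whose window above holds 3 E-boxes, was measured at 12.3, 8.21 and 9.35 FPKM in CT, at 11.7, 10.2 and 13.1 in WT_ST and at 13.4, 15.6 and 14.2 in KO_ST. All KO_ST mice lay above all others. KO_ST exceeded CT by a log2 fold change of 0.54 (SE 0.136, 95% confidence interval 0.21 to 0.86, limma adjusted p = 0.468) and WT_ST by 0.30 (SE 0.0944, 95% confidence interval 0.08 to 0.52, limma adjusted p = 0.782). The call against WT_ST was lost with all 9 mice in one fit, without WT_ST replicate 2 (0.21) and without KO_ST replicate 2 (0.24). WT_ST exceeded CT by 0.24 (95% confidence interval -0.11 to 0.58), by 0.39 without CT replicate 1, which was called, and by 0.12 without CT replicate 2.

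Npas2 lay between 13.5 and 16.5 FPKM in all mice, with a mean of 15.7 ± 0.852 in CT, 14.8 ± 0.514 in WT_ST and 14.0 ± 0.627 FPKM in KO_ST (SD, n = 3). KO_ST lay below CT by a log2 fold change of -0.13 (95% confidence interval -0.28 to 0.02). Tef and Hlf encode factors of the same D-box binding family as Dbp. Tef lay between 80.3 and 90.04 FPKM with overlapping groups. Hlf was measured at 35.7, 30.7 and 32.4 FPKM in CT and at 38.6, 37.6 and 37.6 in WT_ST, a log2 fold change of 0.20 (SE 0.058, limma adjusted p = 0.63) below the fold threshold. KO_ST mice had 35.2, 33.5 and 37.8 FPKM of Hlf.

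Csnk1e was singled out after its values were seen, because, like Clock, it differed widely between mice of 1 group. Csnk1e, a kinase that phosphorylates PER proteins, was at 24.4 to 26.3 FPKM in CT replicate 3 and WT_ST replicates 2 and 3, and at 38.3 to 42.3 in the other 6 mice. Its implied transcript length varied by 4.29% between mice, with 2992 to 3013 bases in the mice with the lower levels and 2889 to 2949 bases in the other 6. Its part in the difference was not tested.

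**Figure D5:**
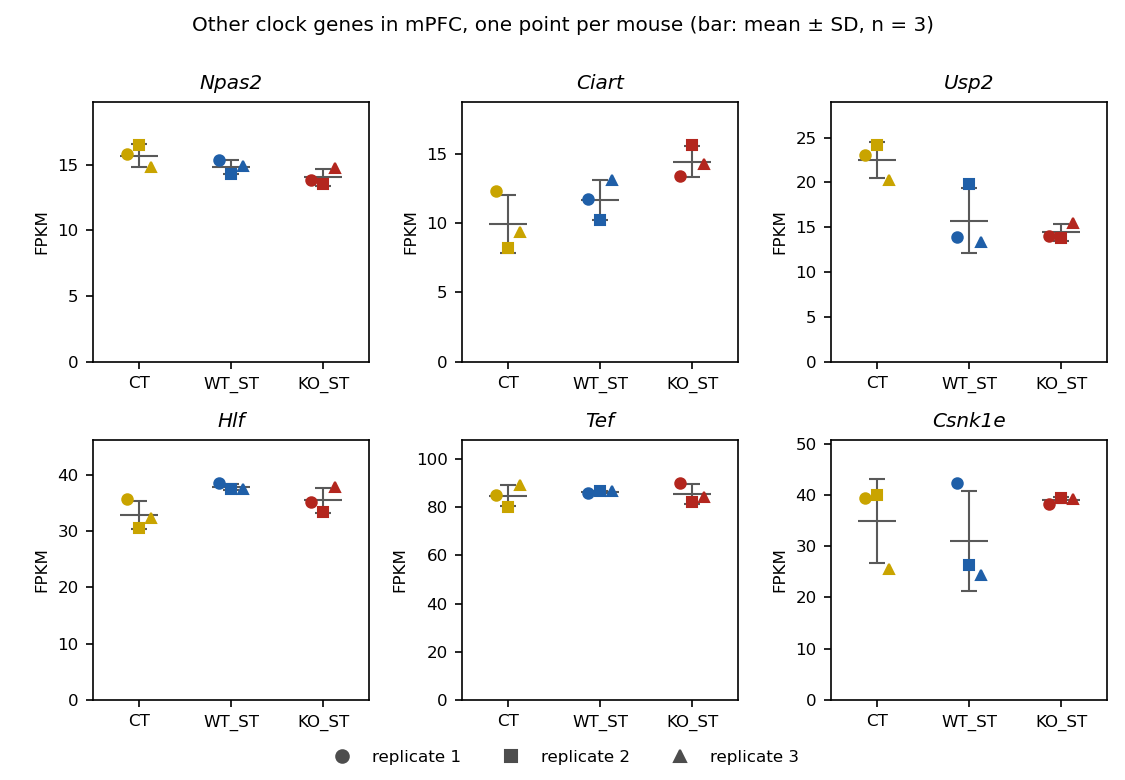
FPKM of 6 of the other clock genes (vertical axes, from 0) in CT, WT_ST and KO_ST, one point per mouse with marker shapes for replicate numbers, a long line for the mean and bars for ± SD (n = 3). Usp2 is at 20.3 to 24.2 in CT and 13.4 to 19.9 in the stressed mice, Ciart is highest in KO_ST, and Csnk1e splits within CT and within WT_ST.

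Targets of the glucocorticoid receptor and immediate early genes, which report hormone and recent neuronal activity, were given as lists of 12 each because both inputs reach Per1. Of the receptor targets, 1 was called in WT_ST against CT (Fkbp5 itself), 3 in KO_ST against CT and 3 in KO_ST against WT_ST, with Tsc22d3 and Sgk1 higher in the second, Tsc22d3 and Sult1a1 higher in the third and Fkbp5 lower in both, beside 2.47%, 3.56% and 2.0% of all tested genes. Fkbp5 is the gene targeted in KO_ST, so its lower calls there do not report on the receptor. Tsc22d3, an inducible target, had means of 17.0 ± 2.55 in CT, 19.5 ± 4.1 in WT_ST and 26.9 ± 2.3 FPKM in KO_ST (SD, n = 3). The median log2 fold change of the receptor targets was 0.05, 0.11 and 0.13 in WT_ST against CT, KO_ST against CT and KO_ST against WT_ST, and 8 of the 12 lay above 0 in the last. The 4 below 0 there were Fkbp5 and, without a call, Zbtb16 (-0.25), Klf9 (-0.0081) and Cdkn1a (-0.0021). Of the immediate early genes, 5 were called in KO_ST against WT_ST, all higher (Arc, Nr4a1, Dusp1, Ier2 and Btg2), beside 0.946% of all tested genes called higher. Of the other 7, 4 had values below 0 without a call (Egr2 -0.35, Fosb -0.26, Egr1 -0.23 and Egr4 -0.21). In WT_ST against CT 1 was called (Btg2, lower), beside 1.32% called lower, and in KO_ST against CT 0. Their medians were -0.09, 0.05 and 0.22 in the order given for the receptor targets. The part of either input in the clock genes was not tested.

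Markers of other cell types also moved with the groups, and in bulk tissue fewer cells of a type cannot be told apart from less RNA per cell. Of 5 microglia markers, 4 were called lower in both stressed groups against CT (Cx3cr1, P2ry12, Csf1r and Tmem119), beside 1.32% of all tested genes called lower in WT_ST and 2.03% in KO_ST, and the summed FPKM of the 5 was 76.6 to 97.0 in CT, 59.8 to 66.6 in WT_ST and 33.7 to 66.5 in KO_ST. The other marker, Aif1, had log2 fold changes of -0.09 in WT_ST and 0.06 in KO_ST against CT. Of 6 striatum markers, 3 were called higher in WT_ST against CT (sum 46.1 to 55.0 against 55.6 to 68.9 FPKM), 1 higher in KO_ST against CT and 2 lower in KO_ST against WT_ST, beside 1.16% and 1.54% called higher and 1.05% called lower in these comparisons. Of 5 astrocyte markers, 2 were called lower in WT_ST against CT (Aqp4 and Slc1a3), beside 1.32% of all tested genes, while Gfap and Aldh1l1 had values of 0.21 and 0.16. Of 4 endothelium markers, 1 (Cldn5) was called lower in each stressed group against CT, beside 1.32% in WT_ST and 2.03% in KO_ST. Slco1a4 had values of 0.11 and 0.10 there, and Flt1 and Pecam1 lay below 0 without a call. P2ry12 was the microglia marker called lower in KO_ST against WT_ST, beside 1.05% of all tested genes, and Aif1 had a value of 0.15 there. None of the 6 neuron, 5 cortical layer and 5 oligodendrocyte markers was called in any comparison, nor any of the blood (3 of 4), choroid plexus (1 of 3) and suprachiasmatic nucleus (2 of 4) markers that passed the filter. All 6 neuron markers lay above 0 in both stressed groups against CT. Their median log2 fold changes were 0.13 for WT_ST and 0.18 for KO_ST, with an unadjusted p under 0.05 for 2 and 3 of them. The part of these cell types in the clock gene differences was not tested.

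The genes most like Dbp, Arntl and Per1 over the 9 mice were listed by Pearson's r, as a description. For Dbp they were Cntln (0.975), Tor1aip2 (0.971), Prss23 (0.964), Cldn12 (0.961) and Yaf2 (0.961), and 51 tested genes reached 0.9. For Arntl they were Rasip1 (0.97), Abi3 (0.959), Gga1 (0.946), Ssc4d (0.94) and Ablim3 (0.939), with 28 genes at 0.9 or above. For Per1 they were Focad (0.977), Nek6 (0.958), Zfp955a (0.951), Nme2 (0.933) and Tnc (0.926), with 19 genes at 0.9 or above. None of the 25 other clock genes was among the genes named here. Abi3, Ssc4d and Tnc had mean levels below 1 FPKM.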

How the data were processed

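For each of the 9 mice the authors deposited, per gene, a read count without normalization and an FPKM value. By the methods and the submitters' processing notes, mRNA libraries were made with the TruSeq Stranded mRNA kit, sequenced as paired-end reads of 101 bp on an Illumina HiSeq, aligned to mm10 (GRCm38) with HISAT2 2.1.0 and Bowtie2 2.3.4.1 and quantified with StringTie 1.3.4d.

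Quantile normalization over the 9 mice was applied to log2(FPKM+1). Each pair of groups was fitted in R 4.3.3 with limma 3.58.1 (empirical Bayes with a trend in the variance) on the 3 and 3 mice, over 14370 genes with a mean of at least 30 reads. A call needed a fold change over 1.2 together with an unadjusted p under 0.05, with Benjamini-Hochberg adjusted values beside them. edgeR 4.0.16 and DESeq2 1.42.0 on the counts were alternatives, with other pseudocounts, filters, normalizations and mice left out. The limma, edgeR and DESeq2 fits were also run on a simulated comparison of WT_ST with CT, whose outcome is not given here.

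The genes and lists were chosen with earlier results of these data known. Named were the 10 clock genes, Fkbp5, any called other clock gene with Npas2, Ciart, Tef and Hlf, and the 5 genes outside the 10 most correlated with each of Dbp, Arntl and Per1. Genes named from the lists of receptor targets, immediate early genes and cell type markers, and Srd5a3, Tmem165 and Csnk1e, were chosen after their values were seen. Groups of 3 were not screened for single outlying mice. Behavior was not analysed here. Figures used matplotlib 3.10.9.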

Additional observations from a re-analysis of the deposited data

How the results depend on the processing

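Of 630 fold changes of single genes under the alternatives, 586 kept their direction and their side of the criterion, 8 lost the call, 10 gained it and 26 changed sign. The causes were not tested. With an adjusted p under 0.05, DESeq2 gave 2 clock genes in WT_ST against CT and 1 in KO_ST against CT, beside 0.501% and 0.787% of all genes, where limma and edgeR gave 0. The other clock genes called in WT_ST against CT were 1, and 2 with a pseudocount of 0.1 or with edgeR, and those called in KO_ST against WT_ST were 1, and 0 with all 9 mice in one fit. With one mouse left out at a time, called clock genes numbered 2 to 3 in WT_ST against CT, 1 to 4 in KO_ST against CT and 0 to 1 in KO_ST against WT_ST, and called other clock genes 1 to 4, 2 to 3 and 0 to 2. Adjusted calls of the 10 clock genes stayed at 0 in these fits. The shares of all tested genes called with a mouse left out are not given here. Replicate numbers do not pair the mice (deviations of same-numbered mice correlated at -0.26 to 0.23), and with the replicate number as a block the called clock genes were 3, 3 and 0, Clock being added in WT_ST against CT, while the called other clock genes were 1, 2 and 1.

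The contrast differed by 0.01 in WT_ST minus CT, 0.25 in KO_ST minus CT and 0.24 in KO_ST minus WT_ST. Dbp minus Arntl alone gave 0.37, 0.50 and 0.13, and leaving out Clock, added after seeing the data, gave 0.30, 0.43 and 0.13. Leaving out one mouse gave -0.06 to 0.14, 0.12 to 0.38 and 0.11 to 0.34 for the contrast with Clock. In a check also added after seeing the data, it gave 0.13 to 0.41, 0.26 to 0.54 and 0.05 to 0.20 without Clock and 0.17 to 0.49, 0.30 to 0.61 and 0.04 to 0.19 for Dbp minus Arntl. In these 2 versions the lowest values against CT were those without CT replicate 2, and those against WT_ST were without WT_ST replicate 1.

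Signs turned mostly for small differences, but also for Per3 and Clock, whose mice differed widely within groups. Cry2 in KO_ST against CT was 0.0093 with edgeR and 0.0080 with DESeq2 (-0.0046 with limma), and Tef in KO_ST against WT_ST was 0.0013 with DESeq2. With one mouse left out, WT_ST against CT ranged from -0.21 to 0.32 for Per3, -0.0187 to 0.0373 for Cry2 and -0.0245 to 0.0363 for Tef. KO_ST against CT ranged from -0.0329 to 0.49 for Per3, -0.0361 to 0.0199 for Cry2, -0.0435 to 0.85 for Clock and -0.0280 to 0.0332 for Tef. KO_ST against WT_ST ranged from -0.12 to 0.0111 for Arntl, -0.77 to 0.12 for Clock, -0.0390 to 0.0039 for Cry2, -0.0349 to 0.10 for Nr1d1, -0.0355 to 0.0434 for Nr1d2, -0.0376 to 0.0193 for Tef and -0.18 to 0.0866 for Usp2. With 3 mice per group, the spread between mice limits what can be detected.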
